A study of Mus musculus with 12 samples.

Results

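The comparison described here is that of Smchd1-deleted with Smchd1-floxed mouse embryonic stem (ES) cells before differentiation, in 4 of the 12 libraries of the series. These 4 were taken by their labelled genotype and day. Smchd1 del/del cells at day 1 gave 2 libraries, of line 1 and line 3, and Smchd1 fl/fl cells at day 1 gave 2 libraries, of the same lines; all are C57BL/6 and labelled male, and the first sampling, called day 1 in the sample titles, is day 0 of differentiation in the growth protocol. Each line was derived from a single E3.5 blastocyst with 2 inhibitors and LIF in the medium, split, and later moved to serum and LIF. One part received Cre and puromycin resistance from an MSCV retrovirus and was selected with the drug (del/del, called deleted below), and the other part was neither infected nor selected (fl/fl, called floxed). The deletion therefore cannot be told apart from infection and selection. RNA of both genotypes was also taken at day 5 and day 8 on the way to neuromesodermal progenitors, and those 8 libraries enter here through the shared estimate of spread and as later values of the genes named.

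SMCHD1 is a noncanonical member of the SMC (structural maintenance of chromosomes) protein family with an ATPase domain and a hinge that binds nucleic acids. It is best known for keeping genes silent on the inactive X chromosome and at imprinted and clustered loci, among them the Snrpn and Igf2r imprinted clusters, the clustered protocadherins and Hox genes, in mouse embryos and differentiated cells. Undifferentiated ES cells are held in self-renewal by Pou5f1, Sox2 and Nanog. A small share of cells in such cultures passes through a state that resembles the 2-cell embryo, which is marked by the Zscan4 genes.

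The 2 deleted libraries had 7.67 and 8.67 M gene reads (M is mega) and the 2 floxed libraries 6.42 and 7.14 M; each such pair is line 1, then line 3, here and below. Values are reads per M (RPM) rescaled so that the median gene is level between libraries. On the deposited scale the median gene lay 0.15 (log2) higher in deleted cells, and differences are given relative to it. The ES cell markers were high in all 4 libraries, with 10 marker genes summing to 747 and 664 reads per kilobase and M in deleted cells versus 792 and 733 in floxed cells. The 8 fibroblast markers summed to 4.91 and 5.81 in deleted cells versus 5.63 and 3.50 in floxed cells, and 6 mesoderm markers, of which Mesp1 was at 0 reads in all 4, to 0.686 and 0.905 in deleted cells versus 0.677 and 0.671 in floxed cells. The largest departure from the labels lay between the lines and not between the genotypes. The 5 Y-linked genes counted (Ddx3y, Eif2s3y, Kdm5d, Uty and Zfy1) had 29 reads in deleted cells and 42 in floxed cells of line 1, versus 2724 and 1868 in line 3. Line 1 held 2 to 42 such reads in its 6 libraries over all days and line 3 held 261 to 2724, while the share of gene reads on the X chromosome was alike (2.82 to 2.97% in line 1 and 2.79 to 2.97% in line 3). The library labels call line 1 male, and its near absence of Y-linked reads does not match that label in either genotype. Its cause was not tested. The difference within line 3 is therefore given beside the main results that follow and in the plot of named genes; line 3 alone holds 1 library per genotype and allows no test.

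**Figure D1:**
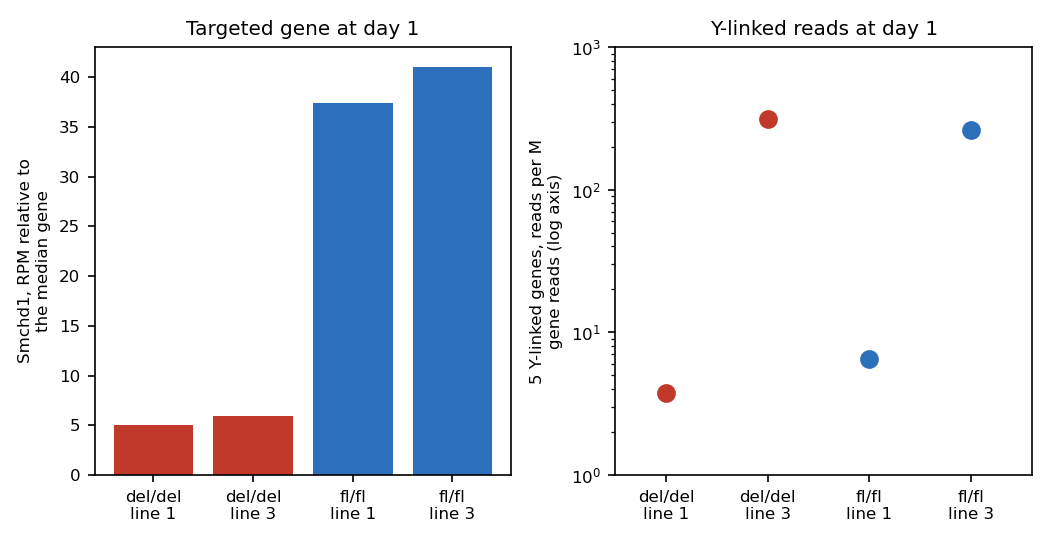
Left, Smchd1 in RPM relative to the median gene, and right, reads of 5 Y-linked genes per M gene reads on a log axis, in the 4 day 1 libraries (del/del in red, fl/fl in blue; 1 bar or point is 1 library). Smchd1 parts the genotypes, at 4.99 and 5.95 in deleted cells versus 37.4 and 41.0 in floxed cells, and the Y-linked reads part the lines.

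Smchd1 itself (chr17:71344489-71475343, mm10, minus strand) was the gene that fell. It had 197 and 271 reads in deleted cells versus 1212 and 1495 in floxed cells, which is 4.99 and 5.95 RPM in deleted cells versus 37.4 and 41.0 RPM in floxed cells. Both deleted libraries lay far under both floxed libraries, in line 1 and in line 3. Its log2 difference was -2.84 ± 0.24 (SE, n = 2 libraries per genotype, limma with Benjamini-Hochberg adjustment, adjusted p = 0.00187), with -2.91 in line 1 and -2.78 in line 3. Over both lines its reads were 7.14-fold higher in floxed cells (95% interval 6.47 to 7.89, counting error only). Transcript from the remaining exons can still be counted, so the reads that remain do not measure undeleted cells. On the deposited scale the same gene differed by -2.69 with an adjusted p of 0.449. Leaving out 1 of the 4 libraries gave -2.72 (adjusted p = 0.0616) without del/del line 1, -2.91 (adjusted p = 0.0541) without fl/fl line 1 and -2.78 (adjusted p = 0.0823) without fl/fl line 3, so the call by limma was lost without each of these 3 libraries.

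Beyond Smchd1 no gene passed the test. Of 14063 tested genes limma called 1 lower (0.00711%) and 0 higher (0.0%), 170 had an unadjusted p under 0.05 (1.21%), of which 81 (0.576%) were higher and 89 (0.633%) lower, and every gene other than Smchd1 had an adjusted p of 1. Limma's voom on the recovered reads also called Smchd1 alone, with 167 genes at an unadjusted p under 0.05. Among 11449 genes with at least 50 reads on average, 97.6% differed by less than 0.5 (log2) and 99.8% by less than 1, on the mean of the lines. The size of change that the test could have missed is set by the shared spread. The median SD within a genotype was 0.084 in deleted cells and 0.080 in floxed cells at day 1, versus 0.247 and 0.143 at day 5 and 0.106 and 0.261 at day 8. The spread of the later libraries thus enters the day 1 test, and genes other than Smchd1 are given below as values, not as changes.

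The 2 lines were weakly alike in how their genes differed. The differences of line 1 and line 3 had a Pearson's r of 0.213 across the 11449 genes with at least 50 reads (genes are not independent replicates), and 57.3% of these genes had the same sign in both lines. In this set 9 genes were more than 1 (log2) higher in both lines and 5 more than 1 lower, and 0 differed by more than 1 in opposite directions. The 5 lower genes were Smchd1, Col4a2, Anxa1, Camk2b and the predicted gene Gm20417. The 9 higher ones were Fam25c, Calml4, Chit1, Cmklr1, Dub1, Arg2 and the predicted genes AC211878.1, Gm5698 and Gm364, which were picked out after their values were seen. Over all tested genes, thinly read ones included, 121 passed the same limit in both lines, 75 higher and 46 lower, and 80 passed it in opposite directions. Under a filter at a deposited log2 above 2 the numbers were 43 and 32.

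**Figure D2:**
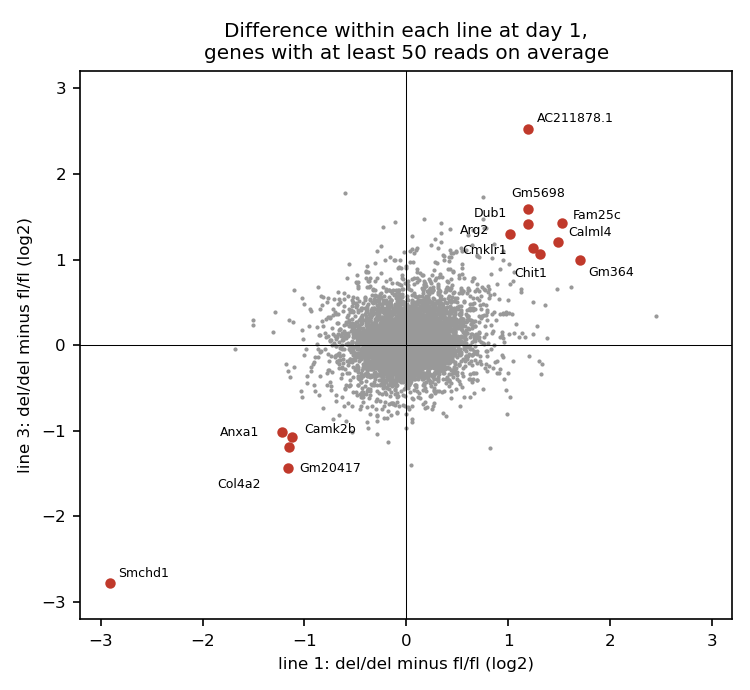
Log2 difference del/del minus fl/fl in line 1 (x axis) and line 3 (y axis) for 11449 genes with at least 50 reads on average at day 1, with the 14 genes beyond 1 in both lines in red. Most genes lie within 0.5 of zero on both axes, and Smchd1, at -2.91 and -2.78, stands apart from the rest.

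The 12 genes with higher values in deleted cells that are described next had the smallest p among genes chosen for libraries that do not overlap between genotypes (17.4% of all tested genes in that direction) and for a deposited log2 above 0 in both libraries of at least 1 genotype. Their lack of overlap is thus no finding, and none passed the test. The transcription factor gene Ets1 had 34 and 39 reads in deleted cells versus 13 and 15 in floxed cells, or 0.861 and 0.857 RPM in deleted cells versus 0.401 and 0.411 RPM in floxed cells. Both lines showed it alike, at 1.10 and 1.06, and the fitted difference was 1.08 ± 0.25 (limma, unadjusted p = 0.00123). Crlf2, a subunit of the receptor for the cytokine TSLP, had 6.20 and 6.81 RPM in deleted cells versus 4.01 and 4.58 RPM in floxed cells, a difference of 0.60 ± 0.15 (0.57 in line 3). Axin2, a negative regulator of Wnt signalling that is itself a Wnt target, had 6.43 and 5.62 RPM in deleted cells versus 3.92 and 4.44 RPM in floxed cells, a difference of 0.53 ± 0.15 (0.34 in line 3). These values place the deleted libraries about as far above the floxed libraries in both lines for Crlf2, and further in line 1 for Axin2.

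Fam25c, whose role is not well described, was the largest of the 12 higher genes. It had 74 and 84 reads in deleted cells versus 21 and 25 in floxed cells, and differed by 1.48 ± 0.42, with 1.53 in line 1 and 1.43 in line 3. Wnt6, a Wnt ligand gene, had 33 and 32 reads in deleted cells versus 16 and 14 in floxed cells (0.82 ± 0.27; 0.87 in line 3), and the homeobox gene Meis2, which encodes a Hox cofactor, had 32 and 39 in deleted cells versus 14 and 20 in floxed cells (0.78 ± 0.27; 0.64 in line 3). Their lack of overlap was a condition of their choice. Both met the limit on low values at day 1 in the deleted libraries only, as did Ets1, Fam25c, Galnt12 and Tspyl5. These genes thus entered the list through the genotype in which they are high. The remaining higher genes include enzymes and a transporter. The phosphoinositide phosphatase gene Mtmr1, on the X chromosome, differed by 0.96 ± 0.31, Galnt12, which starts O-linked glycosylation, by 1.12 ± 0.38, and the lysosomal sulfatase gene Arsk by 1.24 ± 0.46. Galnt12 and Arsk were less alike between lines, at 0.51 and 1.74 and at 0.75 and 1.73 for line 1 and line 3. Ilvbl, with 0.43 in line 1 and 1.11 in line 3, differed by 0.77 ± 0.20, the zinc transporter gene Slc39a11 by 0.49 ± 0.18 and Tspyl5, of the nucleosome assembly protein family, by 1.23 ± 0.45.

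The 11 lower genes besides Smchd1 were chosen in the same way, by p among genes whose libraries do not overlap (19.8% of tested genes in the lower direction) and with the same limit on low values, which Wnt4 does not pass. Cd44, Stard8, Ociad2 and Man1c1 met that limit at day 1 in the floxed libraries only, where they are high. Genes of the matrix and cell surface come first. Col4a2, a chain of the type IV collagen of basement membranes, had 74 and 94 reads in deleted cells versus 136 and 203 in floxed cells, or 1.87 and 2.07 RPM in deleted cells versus 4.20 and 5.56 RPM in floxed cells. It was negative in both lines, at -1.16 and -1.43, and its fitted difference was -1.30 ± 0.29 (limma, unadjusted p = 0.00088). Its partner Col4a1, which is transcribed in the opposite direction from the same start region, had 5.27 and 6.96 RPM in deleted cells versus 6.08 and 9.78 RPM in floxed cells, and the genotypes overlapped (-0.35 ± 0.34). The start region is shown because both genes share it, with the bases that lie in the windows of both genes (RefSeq, GRCm38.p6, chr8:11312555-11312854 on the plus strand) in capitals.
Col4a2: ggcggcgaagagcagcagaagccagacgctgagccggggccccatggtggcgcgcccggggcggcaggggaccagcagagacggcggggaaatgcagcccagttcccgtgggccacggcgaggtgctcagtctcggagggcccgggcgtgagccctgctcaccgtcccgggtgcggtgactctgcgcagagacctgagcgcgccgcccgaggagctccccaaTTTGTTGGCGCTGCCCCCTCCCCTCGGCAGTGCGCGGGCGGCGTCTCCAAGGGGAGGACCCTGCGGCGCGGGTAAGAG
The window holds 33 CpG dinucleotides, versus a median of 7 over all promoter windows of this length, and 78 of its bases are shared. Anxa1, a calcium-dependent phospholipid-binding annexin, had 43 and 47 reads in deleted cells versus 82 and 76 in floxed cells (-1.11 ± 0.21), with -1.22 in line 1 and -1.01 in line 3. Cd44, the hyaluronan receptor, had 20 and 21 reads in deleted cells versus 28 and 30 in floxed cells (-0.80 ± 0.27; -0.83 in line 3), and the fibrillar collagen gene Col5a1 had 52 and 79 in deleted cells versus 87 and 92 in floxed cells (-0.78 ± 0.27; -0.54 in line 3). Cyr61, a secreted matrix-associated protein, differed by -0.50 ± 0.16, and the adhesion receptor gene Lphn2 by -0.62 ± 0.19.

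Camk2b, the beta subunit of the calcium and calmodulin-dependent kinase CaMKII, had 146 and 183 reads in deleted cells versus 261 and 308 in floxed cells, or 3.70 and 4.02 RPM in deleted cells versus 8.06 and 8.44 RPM in floxed cells. The lines gave nearly the same difference, -1.12 and -1.07, and the fitted value was -1.10 ± 0.25. Stard8, on the X chromosome, differed by -1.31 ± 0.37, Ociad2, whose product is mitochondrial, by -1.45 ± 0.42, the Golgi mannosidase gene Man1c1 by -1.01 ± 0.30 and the DNA-binding factor gene Arid3a by -0.41 ± 0.14. Ociad2 and Man1c1 were thinly read, with 10 and 24 and with 14 and 31 reads in deleted cells. A fit in which libraries were weighted by their spread called 4 genes higher and 7 lower (0.0284 and 0.0498% of tested genes), and gave the 4 day 1 libraries weights of 2.38 to 2.40 versus 0.303 to 1.54 for the others. In that fit the higher genes were Ets1, Hoxb2, Hoxb3os and AI507597, whose exons are wholly shared with Tmem82, and the lower ones Smchd1, Anxa1, Camk2b, Col4a2, Wnt4, Lsp1 and the predicted gene Gm13372.

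**Figure D3:**
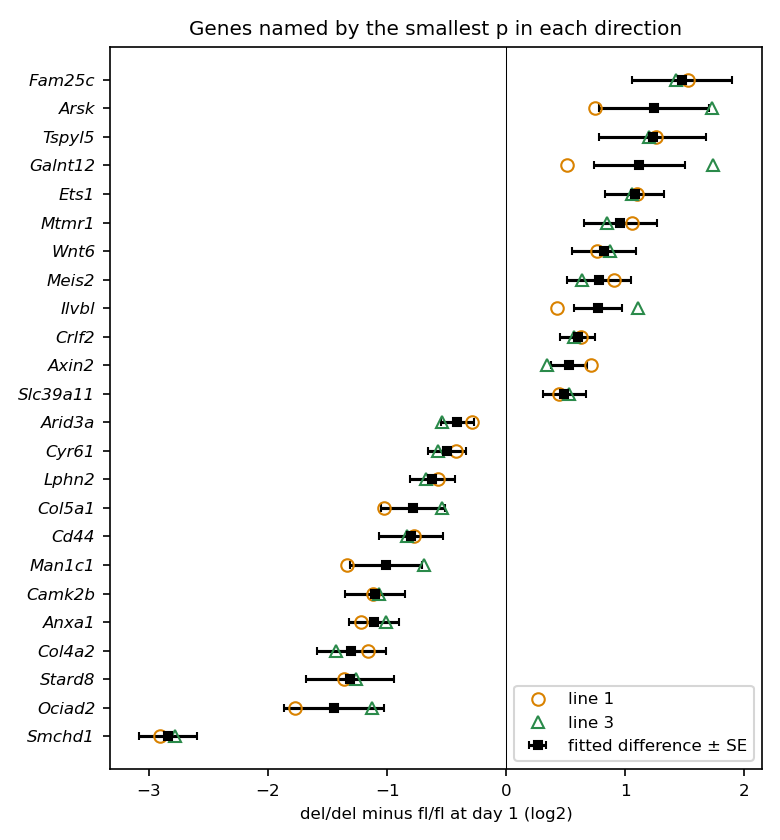
Fitted log2 difference del/del minus fl/fl at day 1 (squares, bars ± SE) and the difference within line 1 (circles) and line 3 (triangles) for Smchd1 and the other 23 genes with the smallest p among those with a deposited log2 above 0 in both libraries of a genotype, libraries that do not overlap and no predicted-gene name. Ets1, Crlf2, Camk2b and Fam25c show near-equal differences in both lines, while Galnt12, Arsk and Ilvbl are larger in line 3.

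Some of these genes could be followed in the day 5 and day 8 libraries of the same 2 lines, whose own differences took no part in naming them. The spread of those libraries does enter the p by which the genes were ranked, and the filter on low values reads them too. Of the 11 lower genes besides Smchd1, 9 were negative at day 5 and 9 at day 8, where 52.6 and 49.0% of all tested genes were. Of the 12 higher genes, 7 were positive at day 5 and 6 at day 8, where 47.4 and 51.0% of all tested genes were. Camk2b was negative at every day, at -1.10 ± 0.25, -1.36 ± 0.25 and -1.42 ± 0.25 at day 1, 5 and 8, and passed the limma test at day 8 (adjusted p = 0.0114), where 7.05% of tested genes were called lower and 7.95% higher. Fam25c was positive at every day, at 1.48, 1.00 and 1.34. Col4a2 passed at day 8 at -1.26 ± 0.29 (adjusted p = 0.0209), and Ets1 had -0.83 at day 5 and -0.05 at day 8. Col5a1, lower at day 1, was called higher at day 8 by limma (1.11 ± 0.27, adjusted p = 0.0248). Meis2, higher at day 1, was also called higher at day 8 (1.30 ± 0.27, adjusted p = 0.0179). The floxed library of line 3 at day 8 holds 1.51 M gene reads. Without it the day 8 calls were lost for Camk2b (-1.28), Col4a2 (-1.07), Col5a1 (0.63) and Meis2 (1.34).

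**Figure D4:**
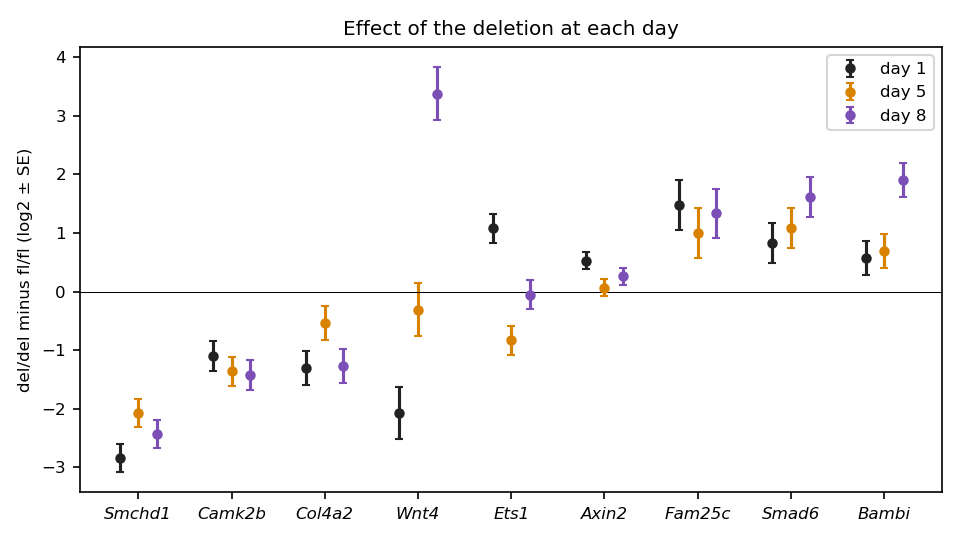
Fitted log2 difference del/del minus fl/fl (± SE) at day 1, day 5 and day 8 for 9 genes named in the text. Camk2b is negative and Fam25c and Smad6 are positive at all 3 days, and Wnt4 is negative at day 1 and positive at day 8.

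No gene of self-renewal passed the test. Pou5f1, the central pluripotency factor, had 59.1 and 52.1 RPM in deleted cells versus 65.8 and 61.1 RPM in floxed cells (-0.19 ± 0.17), and Sox2 had 42.9 and 40.5 RPM in deleted cells versus 51.5 and 44.2 RPM in floxed cells (-0.19 ± 0.22). Nanog, at 31.4 and 22.0 RPM in deleted cells versus 29.7 and 23.8 RPM in floxed cells, overlapped between the genotypes (-0.01 ± 0.39, and 0.14 on the deposited scale). None of the 12 core, 19 naive and 13 primed pluripotency genes tested passed, and their medians were -0.15, -0.01 and -0.07 (all tested genes -0.004). The naive factors Klf4 (-0.20 ± 0.36), Esrrb (-0.31 ± 0.37) and Zfp42 (0.09 ± 0.53) and the genes Fgf5 (-0.20 ± 1.21), Otx2 (-0.07 ± 0.69) and Dnmt3b (-0.16 ± 0.21), which are raised on leaving the naive state, were no further than their SE from zero. The core genes are densely read, and in 10 equal bins of genes ordered by reads per kilobase the median ran between 0.033 in bin 4 and -0.062 in the densest. With that trend removed the core, naive and primed medians were -0.07, -0.01 and -0.10. The cause of these small medians was not tested.

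The 2-cell-like genes are given first by their sums, which the filter on low values does not touch. Summed over 17 genes in the table, thinly read ones included and the widely used Eif1a left out, they had 1126 and 1042 reads in deleted cells versus 541 and 410 in floxed cells, or 28.5 and 22.9 RPM in deleted cells versus 16.7 and 11.2 RPM in floxed cells. Both deleted sums lay above both floxed sums. With Eif1a included, the 18 genes had 75.0 and 66.3 RPM in deleted cells versus 68.7 and 58.6 RPM in floxed cells. Those sums overlapped between the genotypes, so the separation depends on leaving out Eif1a. In bulk RNA, more cells of this kind and more RNA per cell cannot be told apart. The 5 Zscan4 genes, which mark the 2-cell-like state, supplied 606 and 554 of the reads in deleted cells and 306 and 229 in floxed cells (15.3 and 12.2 RPM in deleted cells versus 9.44 and 6.27 RPM in floxed cells). The promoter windows of 3 of them are shown so that the copies can be compared (RefSeq, GRCm38.p6, 250 bases before to 50 after the start; Zscan4c chr7:11005495-11005794 on the plus, Zscan4d chr7:11166099-11166398 on the minus and Zscan4f chr7:11397665-11397964 on the plus strand). Capitals in Zscan4d and Zscan4f mark bases that differ from Zscan4c.
Zscan4c: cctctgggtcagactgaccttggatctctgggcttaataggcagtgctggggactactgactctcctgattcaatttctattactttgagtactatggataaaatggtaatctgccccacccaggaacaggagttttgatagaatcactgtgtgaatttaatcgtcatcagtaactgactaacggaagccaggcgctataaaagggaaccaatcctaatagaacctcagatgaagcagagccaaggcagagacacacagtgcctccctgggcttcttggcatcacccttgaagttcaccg
Zscan4d: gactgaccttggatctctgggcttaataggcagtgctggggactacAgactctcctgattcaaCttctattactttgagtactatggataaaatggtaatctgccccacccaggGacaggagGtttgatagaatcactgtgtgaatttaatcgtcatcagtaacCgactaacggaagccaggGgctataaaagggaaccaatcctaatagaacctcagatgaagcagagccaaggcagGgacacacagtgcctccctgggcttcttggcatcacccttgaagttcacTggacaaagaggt
Zscan4f: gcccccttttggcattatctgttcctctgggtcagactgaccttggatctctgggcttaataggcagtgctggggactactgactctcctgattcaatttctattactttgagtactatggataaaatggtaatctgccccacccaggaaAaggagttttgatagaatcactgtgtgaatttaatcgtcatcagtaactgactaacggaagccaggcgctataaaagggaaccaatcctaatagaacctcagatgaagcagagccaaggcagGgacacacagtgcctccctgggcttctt
Where the windows overlap, Zscan4d matches Zscan4c at 281 of 289 bases (97.2%) and Zscan4f at 275 of 277 (99.3%). The likeness of their transcripts was not measured here, and since reads of such a gene family may be split among copies, values of single copies are uncertain. Zscan4d had 322 and 284 reads in deleted cells versus 137 and 114 in floxed cells, with no overlap between the genotypes (0.97 ± 0.77; 0.95 in line 1 and 1.00 in line 3). Zscan4c had 117 and 120 reads in deleted cells versus 71 and 47 in floxed cells (0.73 ± 1.31), and Zscan4f had 61 and 60 in deleted cells versus 27 and 16 in floxed cells (1.24 ± 1.00). The SE of each uses the spread of all 12 libraries, and in the libraries of day 5 and day 8 the 5 genes together had at most 31 reads.

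Among the other 2-cell-like genes the signs were not all alike. Eif1a, a widely used translation initiation factor gene, had 46.5 and 43.4 RPM in deleted cells versus 52.0 and 47.4 RPM in floxed cells (-0.15 ± 0.26, and 0.01 on the deposited scale), and the thinly read Pramel7 had 7 and 3 reads in deleted cells versus 6 and 4 in floxed cells; both were picked out after their values were seen. Arg2, a mitochondrial arginase with 28.1% of its exons shared with neighbours, had 2.25 and 2.50 RPM in deleted cells versus 1.11 and 1.01 RPM in floxed cells (1.16 ± 0.62; 1.30 in line 3). Tcstv1 had 97 and 71 reads in deleted cells versus 47 and 22 in floxed cells (1.07 ± 0.67; 1.37 in line 3), and Dub1, a deubiquitinating enzyme gene, had 123 and 100 in deleted cells versus 44 and 30 in floxed cells (1.31 ± 1.05; 1.42 in line 3). Of 27 listed genes, 18 were in the table and 10 were tested. Of these, 9 were positive in both lines, as were 26.7% of all tested genes, 0 passed and the median was 0.85. The filter could be passed by the 2 deleted libraries alone. At day 1 Zscan4b, Zscan4e, Zscan4f and Tcstv1 each reached it in 1 floxed library at most. The count and the medians of this list are therefore descriptions and support nothing. The median was 0.61 in line 1 and 1.02 in line 3, 1.01 on the deposited scale, 0.69 with the read density trend removed, and 0.39 without the floxed library of line 3. The 10 promoter windows of the list are poor in CpG, with a median of 2 versus 7 over all promoter windows.

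Germline and meiosis genes mostly had positive differences. Of 28 listed genes 26 were in the table and 21 were tested. Of these, 20 had positive differences, 17 of them in both lines, and 0 passed. Of all tested genes 48.8% were positive and 26.7% were positive in both lines. Their median was 0.29. Summed over the 26 genes they had 200 and 161 RPM in deleted cells versus 164 and 134 RPM in floxed cells, so that line 3 of deleted cells lay just under line 1 of floxed cells. Sycp1, a component of the synaptonemal complex, had 6.81 and 6.09 RPM in deleted cells versus 4.94 and 3.37 RPM in floxed cells (0.66 ± 0.46; 0.85 in line 3). Slc25a31, the testis-enriched ADP/ATP carrier, had 4.68 and 2.75 RPM in deleted cells versus 2.25 and 2.49 RPM in floxed cells (0.60 ± 0.47; 0.14 in line 3), and Mov10l1, a helicase of the piRNA pathway, had 4.48 and 3.38 RPM in deleted cells versus 2.22 and 2.60 RPM in floxed cells (0.70 ± 0.67; 0.38 in line 3). Those 3 genes, shown for their small p within the list, did not overlap between the genotypes. Of the 21 tested, 8 were higher without overlap, as were 17.4% of all tested genes. The RNA-binding germ cell gene Dazl had 5.65 and 3.19 RPM in deleted cells versus 3.40 and 2.55 RPM in floxed cells, and line 3 of deleted cells lay under line 1 of floxed cells (0.53 ± 0.46; 0.32 in line 3). Its promoter is shown as an example of the list's CpG-rich windows, with each CpG in capitals (RefSeq, GRCm38.p6, chr17:50293571-50293870, minus strand).
Dazl: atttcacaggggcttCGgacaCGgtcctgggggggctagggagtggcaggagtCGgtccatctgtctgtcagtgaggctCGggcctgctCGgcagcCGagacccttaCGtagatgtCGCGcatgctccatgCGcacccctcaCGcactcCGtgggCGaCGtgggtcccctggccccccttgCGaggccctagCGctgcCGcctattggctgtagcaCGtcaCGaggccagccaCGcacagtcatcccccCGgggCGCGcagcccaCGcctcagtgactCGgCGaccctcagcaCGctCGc
It holds 28 CpG. The 30 windows of 25 genes of this list had a median of 19.5, versus 7 over all promoter windows and 2 in the 2-cell-like windows. The list's median was 0.11 without the deleted library of line 1, 0.12 without the floxed library of line 3, 0.43 without the deleted library of line 3 and 0.44 without the floxed library of line 1. At day 5 it was -0.48 and at day 8 0.59.

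Genes that respond to BMP, Nodal and TGF-beta signals were mostly positive, 16 of 18 tested and 8 of them in both lines. Their median was 0.17 and 0 were called. Of all tested genes 48.8% were positive and 26.7% were positive in both lines. The genes named below had the smallest p of the list. At day 5 the list had a median of -0.13 with 8 of 18 positive, and at day 8 one of 0.85 with 14 positive. Smad6, a feedback inhibitor that BMP signalling induces, had 78 and 60 reads in deleted cells versus 36 and 27 in floxed cells, or 1.98 and 1.32 RPM in deleted cells versus 1.11 and 0.740 RPM in floxed cells. The genotypes did not overlap, as in 5 of the 18 genes and 17.4% of all tested genes in this direction. The difference of Smad6 was 0.83 in both lines, and the fitted value was 0.83 ± 0.34. Bambi, a decoy receptor that BMP signalling also induces, had 4.08 and 3.82 RPM in deleted cells versus 2.59 and 2.74 RPM in floxed cells (0.57 ± 0.29; 0.48 in line 3), and the helix-loop-helix inhibitor gene Id1 had 13.7 and 9.86 RPM in deleted cells versus 9.57 and 7.65 RPM in floxed cells (0.44 ± 0.26; 0.37 in line 3). Tgfbi, a secreted matrix protein induced by TGF-beta, was thinly read at 28 and 37 reads in deleted cells versus 19 and 11 in floxed cells (0.85 ± 0.58). At day 5 and day 8 Smad6 differed by 1.08 and 1.62 (day 8 adjusted p = 0.0179 by limma) and Bambi by 0.70 and 1.90 (day 8 adjusted p = 0.00729). Without the floxed day 8 library of line 3, Bambi kept its day 8 call (1.65, adjusted p = 0.039) and Smad6 did not (1.54, adjusted p = 0.0759). The day 1 values of Smad6 ran between 0.54 and 1.12, and those of Id1 between 0.21 and 0.68, as each day 1 library was left out, the lower values without del/del line 1 or fl/fl line 3.

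Wnt genes had mixed signs. Of 18 tested targets and feedback genes 10 were positive (median 0.11) and of 13 tested ligand genes 8 were (median 0.26), with 0 called in either. Wnt4, a ligand gene, had 7 and 9 reads in deleted cells versus 26 and 28 in floxed cells, a difference of -2.07 ± 0.45, and its reads were 4.16-fold higher in floxed cells (95% interval 2.35 to 7.79, counting error only). Both lines were alike, at -2.18 and -1.96. Wnt11 had 3 and 9 reads in deleted cells versus 15 and 11 in floxed cells (-1.61 ± 0.59), and Rnf43, a ubiquitin ligase that removes Wnt receptors, had 10 and 1 in deleted cells versus 12 and 11 in floxed cells (-2.16 ± 0.85), with a fitted value that rests on the single read in line 3. Cdx2, a caudal homeobox gene that Wnt signals can induce, had 43 and 34 reads in deleted cells versus 19 and 23 in floxed cells (0.57 ± 0.28), and the Wnt antagonist gene Dkk1 had 3 and 9 in deleted cells versus 2 and 2 in floxed cells (1.08 ± 0.52). The Wnt6 and Axin2 values above belong to the same lists.

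The Hox genes set position along the body axis and are silent in ES cells, and here they were near the limit of detection. All 39 together had 141 and 153 reads in deleted cells versus 113 and 106 in floxed cells (3.57 and 3.36 RPM in deleted cells versus 3.49 and 2.90 RPM in floxed cells), and the genotypes overlapped in RPM. Of them, 4 had 0 reads in all 4 libraries. A gene with 0 reads everywhere, as 34 tested genes had (0.242%), takes a fitted value of -0.30, because 0 is entered as 0.9 reads and then scaled by library, and the list's median equals it. Hoxb2 had 8 and 8 reads in deleted cells and 0 and 0 in floxed cells. Against a floor of 3 reads over the floxed group, the deleted reads were 4.32-fold higher. With the counting error of the 16 deleted reads included, the lower 95% limit is 3.13-fold. The antisense transcript Hoxb3os, which overlaps Hoxb3 and Hoxb2 over 76.2% of its exons, had 8 and 15 reads in deleted cells versus 1 and 2 in floxed cells, and reads of the sense and antisense genes may not have been told apart. Hoxd3, with 62.8% of its exons shared with neighbours, had 6 and 4 reads in deleted cells versus 1 and 1 in floxed cells. Hoxb8 had 2 and 0 reads in deleted cells versus 3 and 4 in floxed cells, and Hoxb9 had 3 and 8 in deleted cells versus 11 and 6 in floxed cells. These reads are few, and none of the Hox genes passed the test.

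Apart from the Hox genes above, imprinted and clustered loci that SMCHD1 is known to silence elsewhere had medians near zero among their tested genes. In the imprinted Snrpn cluster the 8 genes had a median of 0.04 and 0 were called. Mkrn3, a ubiquitin ligase gene, had 3.37 and 3.76 RPM in deleted cells versus 3.30 and 2.82 RPM in floxed cells (0.22 ± 0.33), Ndn, a MAGE-family gene, had 6.99 and 8.35 RPM in deleted cells versus 7.41 and 6.22 RPM in floxed cells (0.17 ± 0.23), and Snrpn, a splicing factor gene, had 47.3 and 43.1 RPM in deleted cells versus 50.3 and 46.9 RPM in floxed cells (-0.10 ± 0.17). In the Igf2r cluster the antisense RNA gene Airn differed by -0.14 ± 0.22 and Igf2r by -0.04 ± 0.18, and 4 of 7 genes were tested. Of 58 listed clustered protocadherin genes, 24 were in the table and 3 were tested; Pcdhga11, with 73.6% of its exons shared with other members, had 17.0 and 20.3 RPM in deleted cells versus 17.6 and 18.3 RPM in floxed cells (0.05 ± 0.12). The 44 other imprinted genes tested had a median of -0.01, and the 5 tested Rhox genes of 0.02. A p that misses the threshold does not show that these genes are unaffected, and the SE of Mkrn3 is larger than its value.

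Chromosome medians were near zero. Those of the 19 autosomes and the X chromosome lay between -0.031 and 0.019, with 0.006 for the 495 tested genes of the X chromosome. Xist, the RNA that coats the inactive X chromosome, had 44 and 58 reads in deleted cells versus 51 and 37 in floxed cells, and the genotypes overlapped (-0.08 ± 0.74). Among the SMC proteins and their partners 26 genes were tested, with a median of -0.01 and differences between -0.22 (Stag1, a cohesin subunit, ± 0.15) and 0.41 (Stag3, a meiotic cohesin subunit, ± 0.31). The medians were -0.04 for 33 Polycomb components, -0.04 for 15 DNA methylation writers and erasers, -0.03 for the H3K9 methylation and HP1 genes and -0.14 for 9 genes of macroH2A and X inactivation. No member of these lists, which do not hold Smchd1, was called.

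Some lists of dense genes lay slightly to the negative side, with 0 called in each. The FGF and ERK feedback genes had a median of -0.14, 14 of 15 tested being negative, with Spred1, an inhibitor of Ras signalling, at -0.27 ± 0.18 and Egr1, an immediate early factor, at -0.29 ± 0.24. The chaperones had a median of -0.13 (15 of 16 negative) and cholesterol synthesis genes one of -0.11 (21 of 23 negative), with the enzyme genes Hmgcs1 at -0.26 ± 0.15 and Idi1 at -0.41 ± 0.28. Of all tested genes 51.2% were negative. With the libraries left on the deposited scale the 3 medians were 0.01, 0.03 and 0.05, so that their sign depends on the scale. With the read density trend removed they were -0.13, -0.07 and -0.08. Lists of interferon and stress genes had members on both sides and 0 called, and they do not tell infection and selection apart from the deletion. The interferon-stimulated genes had a median of 0.07 (18 tested, 11 of them positive, Usp18 at 2 and 2 reads in deleted cells versus 1 and 0 in floxed cells and Rsad2 at 12 and 8 in deleted cells versus 2 and 6 in floxed cells), the p53 targets -0.04 (19 tested, Ccng1 at -0.18 ± 0.21), the integrated stress response -0.06 (23 tested, Atf3 at -0.73 ± 0.34) and the glycolysis and hypoxia genes -0.10 (25 tested). The cell cycle genes had -0.05 (28 tested).

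**Figure D5:**
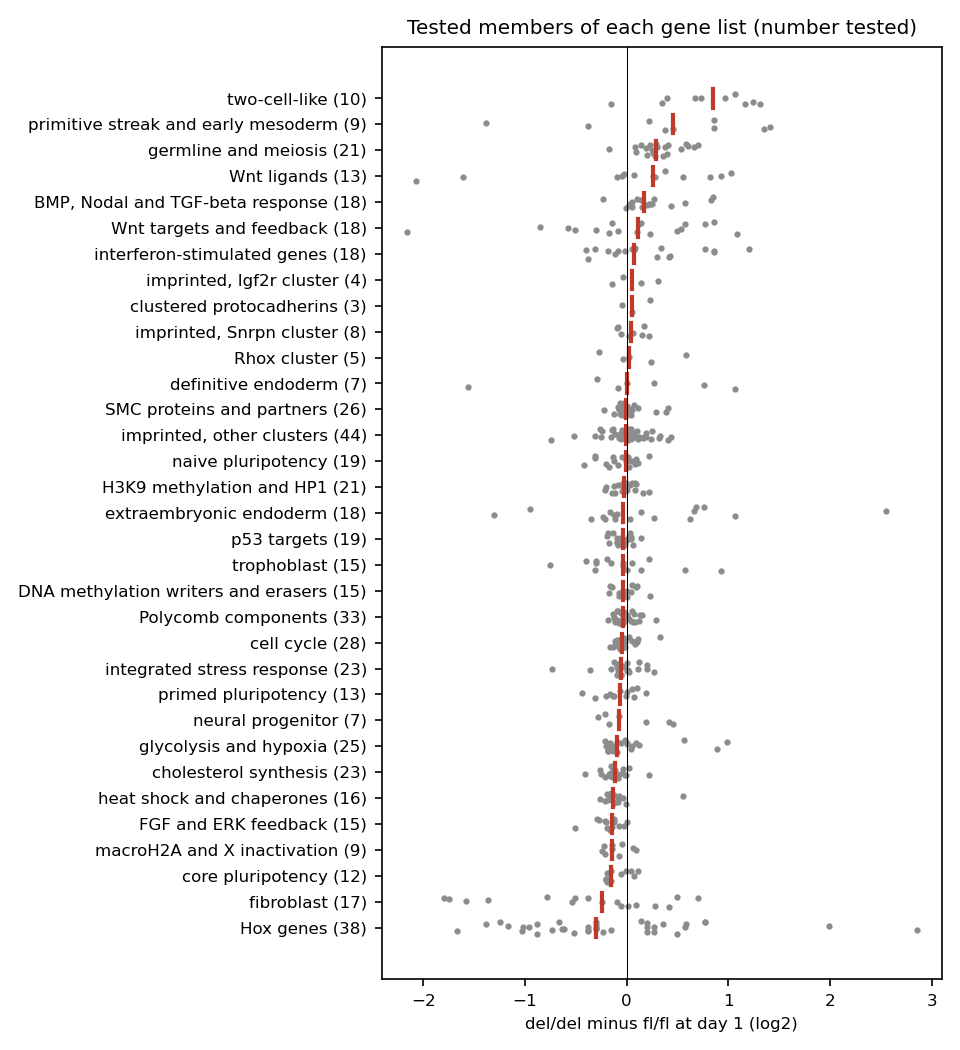
Fitted log2 difference del/del minus fl/fl at day 1 of each tested gene (grey points) and the median (red bars) in 33 gene lists, with the number of tested genes in brackets. The 2-cell-like list, some members of which passed the filter on low values through the del/del libraries, has a median of 0.85, and the Hox list, whose genes are near 0 reads, has one of -0.30.

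Genes of other lineages were mostly thinly read. The medians were -0.03 for 18 extraembryonic endoderm genes, -0.04 for 15 trophoblast genes, -0.08 for 7 neural progenitor genes, 0.00 for 7 definitive endoderm genes and 0.46 for 9 primitive streak and early mesoderm genes, with 0 called. The 12 primitive streak genes together had 159 and 147 reads in deleted cells versus 105 and 94 in floxed cells, or 4.02 and 3.23 RPM in deleted cells versus 3.24 and 2.58 RPM in floxed cells, and the genotypes overlapped in RPM. Fibroblast genes, with a median of -0.24 over 17 tested, had -0.44 in line 1 and 0.02 in line 3, and 6 of the 17 were positive. The highest was the surface protein gene Thy1, with 79 and 99 reads in deleted cells versus 38 and 51 in floxed cells (0.70 ± 0.99), which was also picked out by its value. Col1a1 had 19 and 12 reads in deleted cells versus 53 and 6 in floxed cells, Col3a1 had 12 and 11 in deleted cells versus 57 and 10 in floxed cells, and Col6a1 had 11 and 5 in deleted cells versus 81 and 4 in floxed cells. Each was high in the floxed library of line 1 alone. Prrx1, a mesenchymal homeobox gene, had 0 and 0 reads in deleted cells versus 6 and 1 in floxed cells, and Twist2 had 0 and 1 in deleted cells versus 8 and 0 in floxed cells. Without that library the median was 0.07. The values of Col4a2 and Col5a1 in line 3, -1.43 and -0.54, do not involve that library, but the choice of both genes did. The cause of their values was not tested.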

How the data were processed

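RNA sequencing values of 12 libraries, 4 of them taken at day 1, were used. The authors deposited log2 RPM (reads per M reads) per gene for 25965 genes; the submitters' processing notes name edgeR, bcl2fastq and TopHat2 2.0.12 and the build mm10, without their roles. Within 0.02 reads, 100% of values were whole reads over a library denominator, with 0 reads entered as 0.9; the day 1 denominators were 26.0 to 31.19 M. Reads were recovered from these steps. Libraries were rescaled to the median gene, and 14063 genes with a deposited log2 above 0 in at least 2 libraries were fitted with limma 3.58.1 (R 4.3.3, mean-variance trend, 6 group means over 12 libraries, Benjamini-Hochberg adjustment at 0.05). The fit of recovered reads used limma's voom. Only the filter, the rescaling and the main limma fit were run on simulated reads with known changes. Replicates are 2 lines from separate blastocysts, each split into both genotypes, so the line numbers pair the libraries; deviations from the group means correlated at 0.135 within line. Named genes were Smchd1, the 12 genes per direction with the smallest p among those with a deposited log2 above 0 in both day 1 libraries of at least 1 genotype and libraries that did not overlap (Smchd1 included, predicted genes left out), and up to 4 genes with the smallest p per list, with exceptions stated. Exon lengths and overlaps come from GENCODE M21 and promoter windows from RefSeq; deposited coordinates are mm10. The sources used here do not give whether strand was counted. The comparison, the genes and the 33 lists were chosen with earlier results of these data known. A name stood in more than 1 row for 58 genes. Depth limits precision: intervals and floors cover counting error only.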

Additional observations from a re-analysis of the deposited data

Results flagged for a closer look

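For Wnt4, a Wnt ligand gene, the difference between deleted and floxed cells changed between days by the test of that change. It was 5.45 (log2) higher at day 8 than at day 1 (limma, adjusted p = 0.027), with -2.07 ± 0.45 at day 1, where deleted cells had 7 and 9 reads and floxed cells 26 and 28, and 3.38 ± 0.45 at day 8. When the floxed line 3 library of day 8 was left out, the difference between days was 4.75 (adjusted p = 0.0222). Its cause was not tested.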

How the results depend on the processing

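The number of genes called at day 1 was 1 in the fit reported and in 13 of 18 alternatives. It was 0 on the deposited scale (79 at an unadjusted p under 0.05), where Smchd1 differed by -2.69 (adjusted p = 0.449), and 11 with array weights. Leaving out 1 day 1 library in turn gave Smchd1 differences of -2.97 to -2.72. The call was lost in 3 of the 4 cases and kept without del/del line 3. With a replicate block for the line, Smchd1 stayed the called gene at -2.84 (adjusted p = 0.00845), and the pairing by line changed no other call. The count of genes past 1 in both lines was 121 (80 past it in opposite directions), against 43 (32) with the filter above 2. With the 4 day 1 libraries alone, 974 genes had an unadjusted p under 0.05, or 1450 with the block, and 1 was called. Alternatives chosen after seeing the data, which left out the shallow fl/fl day 8 library or all of day 8, or removed a read density trend, called 1 gene each.

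Of 1477 values of single genes, 18 had another sign. On the deposited scale these were Nanog 0.14, Otx2 0.09, Dnmt3b 0.00, Xist 0.07, Snrpn 0.05, Airn 0.02, Eif1a 0.01 and Igf2r 0.12, and Nanog was at 0.00 with the read density trend removed. Leaving out 1 day 1 library turned Nanog (range -0.27 to 0.24), Zfp42 (-0.08 to 0.26), Fgf5 (-0.46 to 0.06), Otx2 (-0.20 to 0.07), Xist (-0.40 to 0.23), Airn (-0.30 to 0.02) and Pcdhga11 (-0.08 to 0.18), none of which was called. The cause was not tested. Depth limits thinly read genes: of the 2614 genes under 50 reads 87.8% differed by less than 1, and of the others 99.8%.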

Other observations

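Line 1 and line 3 differed along chromosome 3 in both genotypes. The median difference of line 1 minus line 3 over the genes of chromosome 3 was, at day 1, 0.098 (log2) in deleted cells and 0.125 in floxed cells, against -0.033 to 0.054 on the other 19 chromosomes. It concerns the lines and not the genotypes.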
